A study of Homo sapiens with 8 samples.

Results

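Distal H3K27ac peaks of HCECs lie in clusters, and 1195 such clusters formed long acetylated domains of the kind often called super-enhancers. Overlapping peaks of the 6 H3K27ac lists were merged into 143733 intervals, and an interval was kept when its fold over the local background reached 5 in all 3 libraries of at least one genotype, which left 35542. Of these, 20775 were distal, with a summit more than 2 kb from any annotated transcript start. Distal intervals within 12.5 kb of each other were stitched into 15352 groups, and the 1195 groups that spanned at least 20 kb are the domains described here. They held 3921 of the 20775 distal intervals (18.9%). The other groups were 11705 lone intervals under this span and 2452 groups of several intervals under it. The members were thus chosen by the fold of their peaks in both genotypes and by their span, so the folds and percentiles of their intervals are given as a description. Differences between the genotypes in rank were tested only over intervals that passed the filter in both. No binding data of transcription factors or Mediator went into this choice, and the domains are called super-enhancer-like for their length alone.

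The study compared H3K27ac ChIP-seq of parental wild-type (WT) and CREBBP-KO populations of HCEC-1CT, an immortalized line of human colonic epithelial cells grown with EGF, insulin and hydrocortisone. There were 3 libraries of each genotype, which the paper calls replicates, and it names no difference in culture between the genotypes. Whether the replicates were grown separately is not stated in its ChIP-seq methods. CREBBP was disrupted with synthetic guide RNA in cells carrying a doxycycline-inducible Cas9, and the knockout cells of this experiment were called monoclonal, while elsewhere several clones per target were pooled. A property of the clone and an effect of the genotype cannot be told apart with these libraries.

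H3K27ac marks active enhancers and promoters, and CREBBP, with its paralogue EP300, is the main enzyme that places it at enhancers. Super-enhancers are dense clusters of enhancers near genes that define a cell's identity, and they bind large amounts of Mediator, coactivators and acetyltransferases. In epithelial cells in culture they often carry AP-1 and TEAD binding sites, and many lie near genes for adhesion, matrix and growth factor signalling.

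The labelled cell type was checked at gene starts. A peak of fold at least 5 within 1 kb of a start was absent from all 6 libraries for 4 of 5 epithelial markers (EPCAM, CDH1, KRT18 and KRT19) and for 4 of 5 colonic markers (CDX2, VIL1, KRT20 and LGR5), while KRT8 had one in 2 CREBBP-KO libraries and MUC2 in 3. All 5 fibroblast markers (PDGFRA, PDGFRB, DCN, LUM and COL1A2) had one in all 6 libraries. None of 5 blood and 4 endothelial markers had one, and of 4 neuronal markers SYT1 had one in all 6. Peaks of lower fold were present in all 6 libraries at EPCAM, KRT8 and MUC2, in 5 at KRT18 and in the 3 CREBBP-KO libraries at PECAM1, an endothelial marker. At CDH1, KRT19, CDX2, VIL1, KRT20 and LGR5 no peak of any fold was listed.

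Sequence is shown for the strongest interval of 5 domains, as the 300 bases around its highest summit on the plus strand of hg38, because base composition moved with the difference between genotypes (below, each domain is named after the protein-coding gene whose start is nearest to that summit). Capitals mark runs of at least 4 consecutive G or C. The first pair of windows comes from domains that ranked higher in CREBBP-KO, THBS2 (chr6:169167743-169168042) and GLI2 (chr2:120766263-120766562), with 63.7% and 60.0% GC and with 73 and 67 bases in such runs.
THBS2: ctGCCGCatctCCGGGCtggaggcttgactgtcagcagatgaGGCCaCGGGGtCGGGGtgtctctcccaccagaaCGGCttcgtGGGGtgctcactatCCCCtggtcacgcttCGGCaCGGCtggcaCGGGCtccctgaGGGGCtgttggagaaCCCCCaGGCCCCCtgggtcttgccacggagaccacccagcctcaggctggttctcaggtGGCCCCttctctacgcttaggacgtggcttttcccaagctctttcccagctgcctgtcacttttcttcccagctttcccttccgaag
GLI2: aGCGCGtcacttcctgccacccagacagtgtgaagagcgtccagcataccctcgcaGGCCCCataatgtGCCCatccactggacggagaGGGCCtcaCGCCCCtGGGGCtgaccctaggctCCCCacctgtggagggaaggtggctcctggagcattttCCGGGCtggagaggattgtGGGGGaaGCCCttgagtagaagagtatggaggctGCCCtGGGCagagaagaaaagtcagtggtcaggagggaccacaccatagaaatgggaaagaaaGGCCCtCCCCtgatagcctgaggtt
The next pair comes from domains that ranked lower in CREBBP-KO, CDH9 domain 2 (chr5:28155829-28156128) and PITPNB (chr22:27866527-27866826), with 29.3% and 33.3% GC and 0 bases in such runs.
CDH9 domain 2: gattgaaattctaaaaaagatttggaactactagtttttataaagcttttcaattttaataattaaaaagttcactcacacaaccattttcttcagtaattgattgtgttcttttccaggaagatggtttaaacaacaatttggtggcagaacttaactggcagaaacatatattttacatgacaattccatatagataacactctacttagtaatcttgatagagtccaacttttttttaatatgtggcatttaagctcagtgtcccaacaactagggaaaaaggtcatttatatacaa
PITPNB: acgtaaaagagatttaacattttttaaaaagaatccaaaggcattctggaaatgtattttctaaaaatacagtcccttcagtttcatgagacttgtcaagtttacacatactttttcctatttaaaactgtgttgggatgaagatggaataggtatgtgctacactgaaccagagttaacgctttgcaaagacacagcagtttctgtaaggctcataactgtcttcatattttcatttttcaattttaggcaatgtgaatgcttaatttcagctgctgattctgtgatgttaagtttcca
The last window comes from FN1 domain 3 (chr2:215693961-215694260), which held the highest summed percentile of all domains. Its GC content was 41.7%, with 17 bases in runs.
FN1 domain 3: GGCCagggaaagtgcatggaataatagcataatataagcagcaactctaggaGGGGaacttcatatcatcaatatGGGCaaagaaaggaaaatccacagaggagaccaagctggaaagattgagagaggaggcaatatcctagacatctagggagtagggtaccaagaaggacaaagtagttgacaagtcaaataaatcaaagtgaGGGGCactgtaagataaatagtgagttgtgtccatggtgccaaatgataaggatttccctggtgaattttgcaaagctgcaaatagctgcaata
None of the 5 windows held the letters of the AP-1, TEAD, CRE, FOX, ETS or glucocorticoid receptor motif that were searched over all domains.

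The domains covered 40.6 Mb in all, with spans from 20.0 to 162 kb and a median of 28.3 kb. Most were small clusters. The median domain held 3 distal intervals and the richest 12, and 33 domains were a single interval wider than 20 kb. At the span threshold the shortest domain measured 20005 bp and the longest group left out 19999 bp, with 107 domains under 21 kb and 125 groups between 19 and 20 kb. The highest summit lay in an intron of a protein-coding gene in 763 domains (63.8%), in an exon in 28 and outside protein-coding genes in 404. In 218 domains (18.2%) the span also held a protein-coding start, and 85 (7.11%) overlapped a filtered interval near a start, so a minority were not purely distal.

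The domains were assigned to 1000 genes, at a median of 38.1 kb from the start, and 163 genes had several. DST (dystonin, a cytolinker), LPP (a focal adhesion protein), RUNX2 (a transcription factor of bone and mesenchyme) and RAD51B (a recombination protein) had 4 each. FN1, which encodes fibronectin, had 3 that together spanned 268 kb, more than those of any other gene. The assignment states position only, and no contact between a domain and a gene was measured.

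Ranking the domains by their summed percentile gave a curve that was steep only over the first ranks. The percentile of a peak is the rank of its fold within its own list on a scale of 0 to 100, and the sum runs over the distal intervals of a domain. The sum thus rises with the number of intervals. A percentile also depends on the length of the list, and the CREBBP-KO lists were longer (below). Sums and percentiles of single domains were not computed with lists of equal length. The mean over the 6 libraries was 1039 at rank 1, 634 at rank 10, 403 at rank 100, 241 at the median and 69.5 at the last rank, and the first 100 domains held 16.3% of the total.

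**Figure D1:**
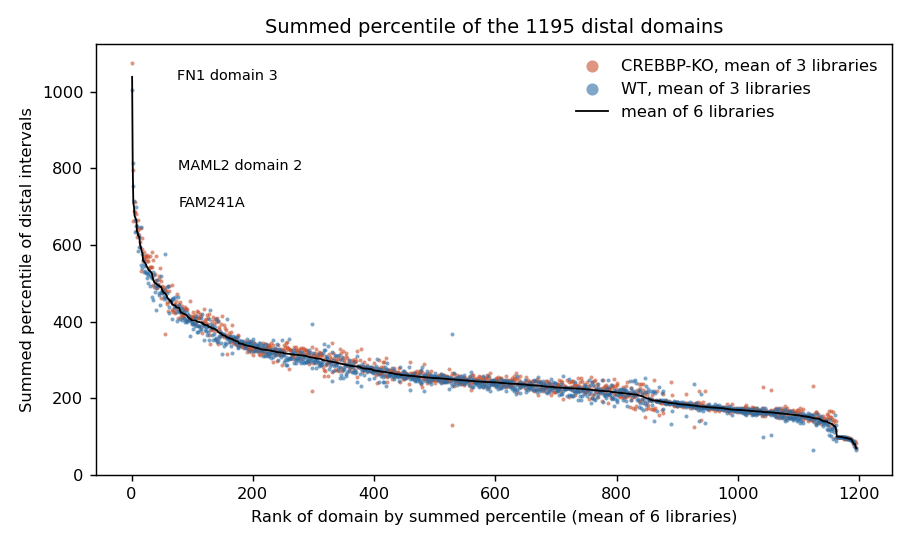
Summed percentile (vertical axis) of each of the 1195 domains against its rank by the mean of 6 libraries (horizontal axis). The line is that mean, and points are the means of the 3 WT and the 3 CREBBP-KO libraries; the curve falls from 1039 at FN1 domain 3 to 241 at the median, with both genotypes close to the line at most ranks.

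FN1 domain 3 lay outside protein-coding genes (chr2:215651717-215797925), 258 kb from the FN1 start, and spanned 146 kb with 12 intervals. Its summed percentile was 1024, 999 and 988 in the WT libraries and 1081, 1070 and 1073 in the CREBBP-KO libraries. Peaks of any fold covered 85.0, 88.9 and 82.6 kb of it in WT and 99.9, 99.9 and 109 kb in CREBBP-KO. All 3 CREBBP-KO libraries were above all WT libraries in both measures.

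Inside FN1 domain 3 the intervals differed in direction. The strongest interval, 28562 bp wide, stood between percentiles 99.7 and 99.9 in the WT libraries and between 99.6 and 99.9 in CREBBP-KO. The only interval that passed in CREBBP-KO alone stood at percentiles 40.5, 52.4 and 32.7 in WT and 81.4, 73.0 and 72.4 in CREBBP-KO. The first interval of the domain went the other way, at 99.0, 98.0 and 96.7 in WT against 94.6, 92.9 and 95.3 in CREBBP-KO. The mean rank of the domain, defined below, was not called (shift 0.15, SE 0.09, limma adjusted p = 0.198), while its coverage was 11.9 percentage points higher in CREBBP-KO on average, without a test because 1 interval passed there only.

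The next domains by summed percentile lay near MAML2 (domain 2, in the gene; a Notch coactivator), FAM241A, TNFSF18 (domain 1; a cytokine), CNN3 (an actin-binding calponin), RNF24, WDR75, CDK6 (in the gene; a cell cycle kinase), RGCC (a cell cycle regulator) and ANO6 (in the gene; a phospholipid scramblase). The domain in CDK6 spanned 93.6 kb, and its summed percentile was 648, 679 and 624 in WT and 670, 686 and 684 in CREBBP-KO, which overlapped. The domain near FAM241A spanned 114 kb and lay 634 kb from that start. It had sums of 771, 758 and 736 in WT and 652, 678 and 655 in CREBBP-KO, all lower.

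The widest domain was ASAP1 domain 2 (an Arf GTPase activator) at 162 kb, followed by FN1 domain 3 and by CRIM1 at 140 kb (a transmembrane protein that binds BMPs). Peaks covered nearly all of ASAP1 domain 2, with 152, 149 and 148 kb in WT and 140, 152 and 155 kb in CREBBP-KO. Yet this stretch was cut into 19, 19 and 21 peaks in WT and into 36, 21 and 14 in CREBBP-KO, so the peak number varied more between replicates than the covered length. In mean rank, defined below, ASAP1 domain 2 (shift -0.34, limma adjusted p = 0.0039) and CRIM1 (-0.42, 0.0055) were lower in CREBBP-KO. Neither was called when distal intervals were ranked among themselves (adjusted p = 0.151 and 0.074) or with 1 prior variance for all groups (0.133 and 0.080).

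The 6 libraries shared most of this landscape. Of the 3921 intervals inside domains, 2949 (75.2%) passed the fold filter in both genotypes, against 62.7% of lone intervals, while 443 passed in WT only and 529 in CREBBP-KO only. In 519 domains every interval passed in both. A further 354 domains held an interval of WT only and 413 one of CREBBP-KO only, 91 of which held both kinds. The mean summed percentile of the WT libraries ranked the domains like that of the CREBBP-KO libraries, with 85 of the first 100 shared and a Spearman rho of 0.935 across the 1195 domains, which share their libraries. It differed by more than 1.5 times upwards in 11 domains and downwards in 6, and 93.7% of the domains lay between 0.8 and 1.25 times the WT value. Both genotypes are summed over the same intervals, each adding at most 100. The likeness of the sums therefore partly follows from the number of intervals in a domain.

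Summed over all domains, the genotypes overlapped. The libraries had 7794, 7562 and 7567 peaks in domains in WT and 9511, 8501 and 7475 in CREBBP-KO, a mean of 7641 ± 133 (SD, n = 3) against 8496 ± 1018 (SD, n = 3; two-sided exact permutation test, p = 0.4, where 3 against 3 cannot go below 0.1). As the CREBBP-KO lists were longer, with 105241 ± 6347 peaks against 90874 ± 4094 (SD, n = 3; exact p = 0.1), the share of a list inside domains went the other way, at 8.42% ± 0.330 in WT and 8.05% ± 0.484 in CREBBP-KO (SD, n = 3; exact p = 0.4). Peaks covered 21.7, 22.1 and 21.1 Mb of the domains in WT and 20.9, 21.9 and 23.1 Mb in CREBBP-KO, or 53.2% ± 1.34 and 54.1% ± 2.61 of their length (SD, n = 3; exact p = 0.7). In the 3 measures taken inside domains the SD among the CREBBP-KO libraries exceeded the difference between the genotypes, whereas the list lengths of the genotypes did not overlap. The summed percentile was 2.20% higher in CREBBP-KO on average, given without a test because the fold chose the intervals. A percentile is taken within its list, and with lists of equal length this difference was -1.85%, so its direction depended on list length.

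Peaks inside domains were wider than lone distal peaks in every library. Their median width averaged 2248 ± 300 bp (SD over 6 libraries) against 1825 ± 164 bp, a difference of 423 ± 139 bp in 6 of 6 libraries. The span minimum favours wide intervals, so this is a description, and in groups of at least 2 intervals of any span the difference was 222 ± 52.7 bp in 6 of 6 libraries. The median percentile was 80.7 in domains and 76.1 in lone intervals, a description.

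When each genotype was filtered and stitched alone, WT gave 958 domains and CREBBP-KO 993. Of the WT domains 781 (81.5%) overlapped a CREBBP-KO domain, and of the CREBBP-KO domains 779 (78.4%) overlapped a WT domain. Nearly all of the others still held shorter or fewer intervals of the other genotype. Only 6 WT domains, near DDHD1, SBF2 (domain 2), ADH1C, PABPC4L, PTPN12 and PCNX1, and 8 CREBBP-KO domains, near FOXO1, CD180, BDH1, CCDC192, CAMSAP2, ABI3BP, TNS3 and ROR2, held no filtered interval of the other within the span stitched from their own genotype.

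In none of these 14 was the mark missing in the other genotype. The domain in an intron of ROR2 (a Wnt5a receptor; chr9:91770246-91792082) had summed percentiles of 93.3, 74.4 and 29.5 in WT and 238, 227 and 227 in CREBBP-KO, and peaks covered 1.39, 2.20 and 1.13 kb against 5.08, 6.43 and 6.97 kb. The domain 485 kb from FOXO1 (a forkhead factor of insulin signalling) had sums of 100, 95.5 and 103 in WT and 236, 227 and 225 in CREBBP-KO. In the WT direction, the domain near PABPC4L (a poly(A)-binding protein) had sums of 246, 262 and 253 in WT and 163, 129 and 158 in CREBBP-KO. The rule fixed the direction of these 14, and the values are given without a test. Peaks of any fold were present in them in all 6 libraries, and the sums of the genotypes overlapped in PTPN12 and PCNX1 and in none of the other 12. The sums run over the domains stitched from both genotypes, which for SBF2 domain 2 adds an interval of CREBBP-KO outside the WT span. The domain in an intron of CAMSAP2 (a microtubule minus-end protein) was covered over a similar length, 9.77, 10.6 and 8.95 kb in WT and 8.75, 8.70 and 9.28 kb in CREBBP-KO.

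To compare the height of the domains, every filtered interval called in all 6 lists received its rank by fold in each list, expressed as a normal score, a scale on which 0 is the middle rank and 1 lies about 1 standard deviation above it. A domain's score is the mean over its intervals that passed in both genotypes, which the filter does not favour in either, and the rank shift is CREBBP-KO minus WT. Of 1177 domains with such an interval, 104 (8.84%) were higher and 307 (26.1%) were lower in CREBBP-KO (limma with Benjamini-Hochberg adjustment over all 10661 stitched groups tested, adjusted p under 0.05), against a background of 8.96% higher and 20.6% lower over all these groups. The share called higher was near this background, and the share called lower above it. Groups that average more intervals have a smaller standard error, with a median of 0.21 for 1 interval and 0.09 for 5 or more, and this part of the difference was not tested. At an adjusted p under 0.0001, 5 domains were higher and 49 lower, and the share over all groups at this cut was not counted. All 3 libraries of one genotype lay above all 3 of the other in 166 domains with higher and 404 with lower scores, against backgrounds of 15.0% and 28.8%.

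The prevalence of lower calls depended on the scale. The median shift was -0.15 in the domains and -0.14 in all groups, and it was 0.15 in intervals near transcript starts that passed in both genotypes, since distal and start-proximal intervals share the ranks. When distal intervals were ranked among themselves, 195 domains were higher and 189 lower, or 50.8% of calls higher against 25.3% before. All 104 of the higher and 189 of the 307 lower domains were called again. On this scale the domains as a whole had about as many higher as lower calls, with a median shift of -0.006 against -0.01 in all groups. This ranking gives the distal intervals the same mean score in every library. Calls over all groups were not counted on it, so the balance is not read as a trait of the domains. Among the 519 domains whose intervals all passed in both genotypes, 43 were higher (8.29%) and 146 lower (28.1%) on the first scale. The share over all groups of this kind was not counted.

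**Figure D2:**
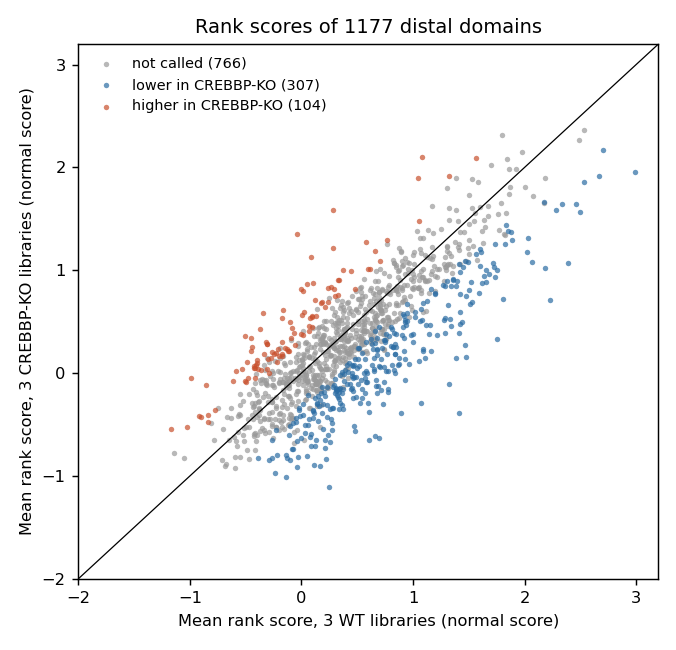
Mean rank score of the 3 CREBBP-KO libraries (vertical axis) against that of the 3 WT libraries (horizontal axis) for the 1177 domains tested, in normal scores, with the line of equality. The 307 domains called lower lie under the line at all heights and the 104 called higher above it, while 766 were not called.

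Where the shift was called it was of moderate size. The median was 0.50 in the higher domains (range 0.28 to 1.39) and -0.58 in the lower ones (range -1.80 to -0.25), and 13 and 43 of them rested on a single interval. The scores of the libraries correlated across domains at 0.906 to 0.916 within WT, 0.905 to 0.916 within CREBBP-KO and 0.733 to 0.749 between the genotypes, a description over domains that share their libraries.

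The largest rise in rank was that of the domain 83.0 kb from THBS2 (thrombospondin 2, a matricellular protein; chr6:169157613-169178210). Its interval that passed in both genotypes stood at percentiles 78.1, 79.6 and 81.0 in WT and 97.0, 98.0 and 95.8 in CREBBP-KO. Peaks covered 3.60, 5.02 and 3.95 kb of its 20.6 kb in WT and 19.3, 16.8 and 18.3 kb in CREBBP-KO. The rank rose by 1.39 (SE 0.20, adjusted p = 9.7e-05). The coverage was 67.6 percentage points higher, without a test because the other interval of the domain passed in CREBBP-KO only. Called peaks thus took up 17.5, 24.4 and 19.2% of the span in WT and 93.6, 81.6 and 88.7% in CREBBP-KO. Acetylation outside called peaks was not measured.

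In the domain inside GLI2, a transcription factor of Hedgehog signalling (chr2:120749373-120781099), the interval that passed in both genotypes stood at 80.1, 86.0 and 87.8 in WT and 99.2, 97.6 and 97.0 in CREBBP-KO. The rank shift was 1.30 (SE 0.22, adjusted p = 0.00038). Its 3 other intervals passed in CREBBP-KO only and moved the same way, for example from 42.3, 36.9 and 32.5 to 73.5, 72.0 and 67.4 in the last. The domain near GAS6, a ligand of TAM receptor kinases, already stood at 91.5, 91.7 and 95.8 in WT and reached 99.3, 98.9 and 98.8 in CREBBP-KO (shift 1.02, SE 0.15, adjusted p = 3.8e-05).

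The other domains with the largest rises lay near ROS1 (a receptor tyrosine kinase, shift 1.04), PPARA (a nuclear receptor of lipid metabolism, shift 0.95) and ITGB6 (the beta subunit of an epithelial integrin, shift 0.94). ITGB6 rose in all 3 CREBBP-KO libraries, from 88.0, 80.3 and 84.5 to 95.6, 97.2 and 95.7 (SE 0.16, adjusted p = 0.00018). ROS1 was low in 1 WT library, at 67.7 against 85.7 and 86.9, and stood at 91.1 to 92.3 in CREBBP-KO (adjusted p = 0.00087). With summits more than 5 kb from starts its shift was 0.49 and no longer called (adjusted p = 0.095). PPARA rested on 1 wide interval and was not called when intervals were ranked within classes of GC content (shift 0.56, adjusted p = 0.070).

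**Figure D3:**
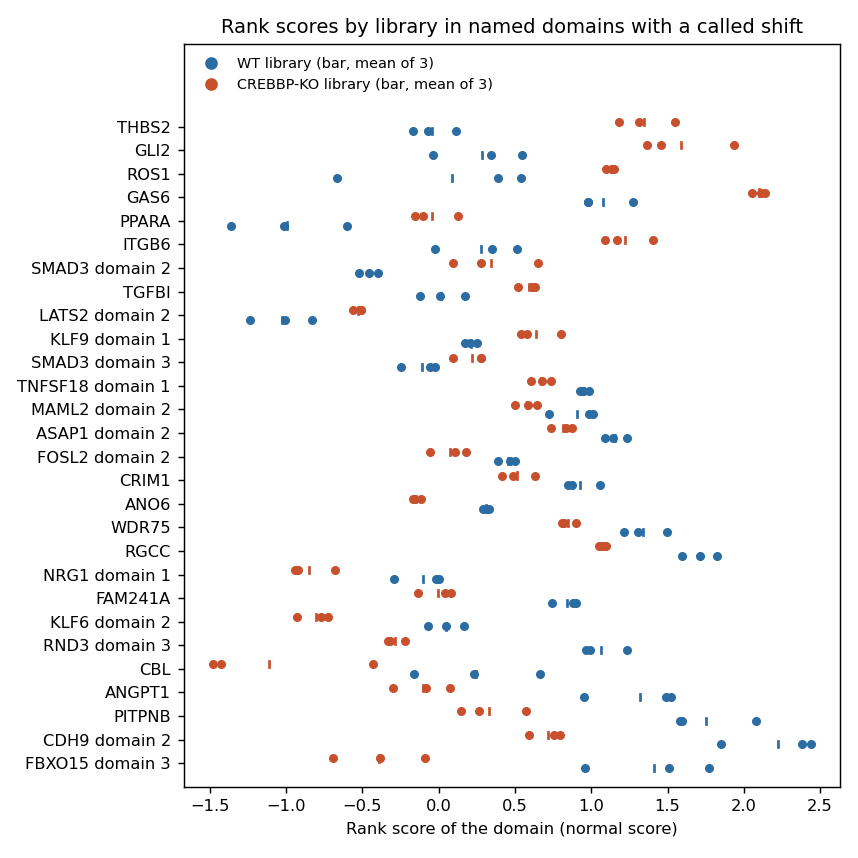
Rank score (horizontal axis, normal score) of the named domains with a called shift, 1 row per domain, with a point per library and a bar at the mean of 3. From THBS2 to SMAD3 domain 3 the CREBBP-KO points lie to the right of the WT points, and from TNFSF18 domain 1 to FBXO15 domain 3 to the left, with no overlap of the genotypes in any row.

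The largest fall in rank occurred in a row of 3 domains on chromosome 18, from 73483026 to 73694222, outside protein-coding genes and 435 to 614 kb from FBXO15, the nearest start. In FBXO15 domain 3 the interval that passed in both genotypes stood at percentiles 97.5, 93.6 and 98.5 in WT and 78.4, 73.1 and 80.7 in CREBBP-KO. Its rank shift was -1.80 (SE 0.23, adjusted p = 4.4e-05). All 3 domains ranked lower in CREBBP-KO, with shifts of -1.03 in domain 1 and -0.82 in domain 2.

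Peaks covered far less of this stretch in CREBBP-KO. Coverage was 70.2, 69.1 and 56.9% of domain 1 in WT and 15.6, 14.8 and 18.7% in CREBBP-KO. In the 91.1 kb of domain 2 it was 73.9, 72.6 and 66.8% against 20.5, 22.8 and 24.5%. In domain 3 it was 84.8, 82.3 and 78.1% against 31.6, 30.1 and 38.4%. The 3 coverage shifts lay between -49.1 and -48.4 percentage points and were left without a test, since 10 of the 15 intervals in the row passed in WT only. No CREBBP-KO library reached the lowest WT library. Domains 1 and 2 were chosen for description after their values were seen.

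A similar pattern was seen on chromosome 5 in 2 domains more than 1 Mb apart, both named after CDH9 (a cadherin of neural cells). Domain 1 lay in an intron, 122 kb from the CDH9 start. Domain 2 bears the name only because no protein-coding start is nearer. CDH9 domain 2 (chr5:28144152-28165821) had a central interval at 99.7, 99.7 and 98.7 in WT and 91.2, 92.4 and 92.4 in CREBBP-KO (shift -1.51, SE 0.21, adjusted p = 7.6e-05). Both flanking intervals passed in WT only and had no peak in some CREBBP-KO libraries. CDH9 domain 1, chosen after its values were seen, was covered to 69.0, 73.5 and 73.2% in WT and to 14.4, 17.3 and 13.8% in CREBBP-KO (coverage shift -56.7 percentage points, SE 2.82, adjusted p = 7.1e-07), although its 3 intervals all passed in both genotypes.

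RND3 domain 3, 124 kb from the gene of an atypical small GTPase that disassembles stress fibres, is a case where every interval passed in both genotypes and every one fell. Its mean percentile was 93.9, 94.9 and 92.5 in WT and 79.3, 79.7 and 77.1 in CREBBP-KO. All 3 intervals had lower scores, by up to -1.92 in the middle one, and the domain's shift was -1.36 (SE 0.13). Its adjusted p was 0.00045 in the fit with 1 prior variance for all groups, quoted because the fit by classes gave all groups of 3 intervals the same standard error and so a far smaller p. RND3 domain 1, in an intron nearer to the gene, fell too (shift -1.26, SE 0.15, adjusted p = 2.9e-06), and RND3 domain 2 had a shift of -0.36 that was not called (adjusted p = 0.170).

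**Figure D4:**
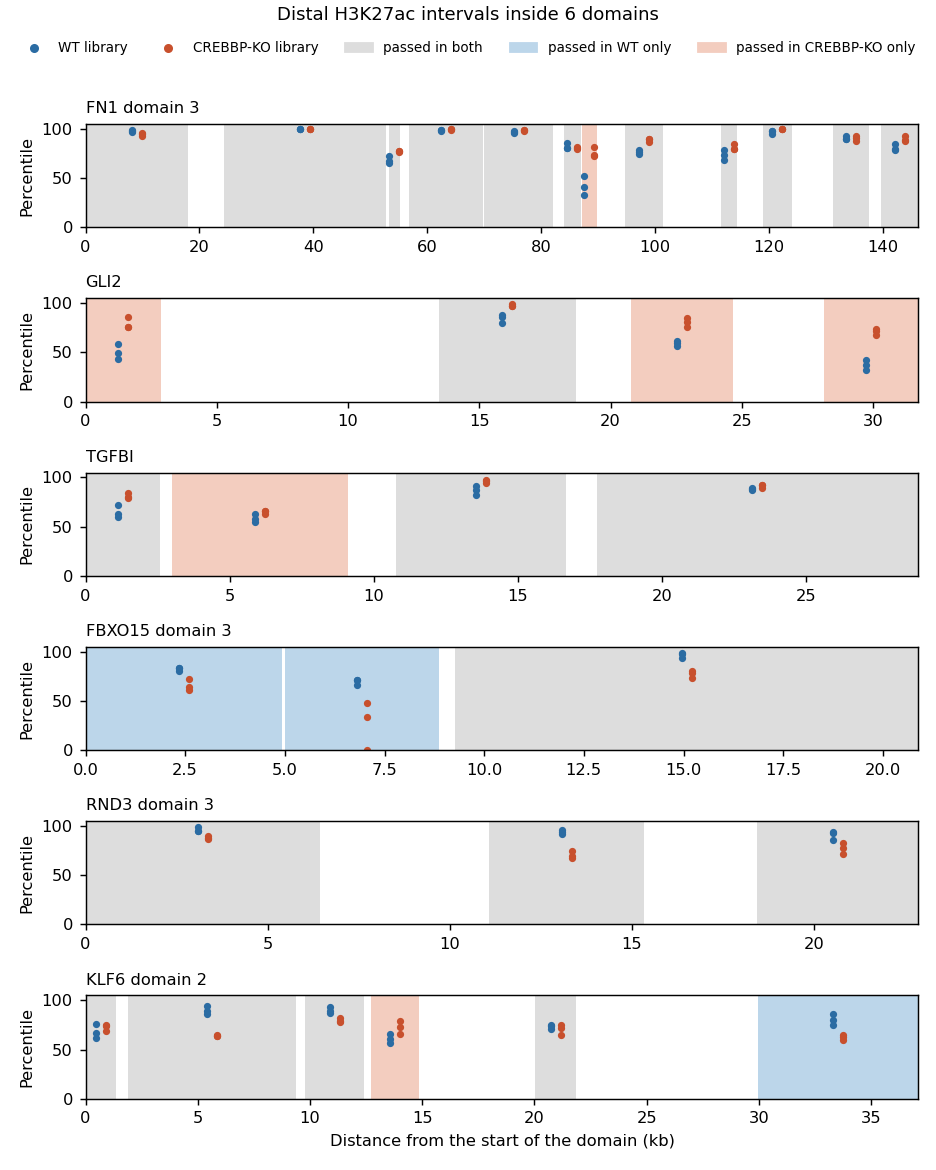
Distal intervals inside 6 domains, drawn to scale by distance from the start of the domain in kb (horizontal axis), with the percentile of each library (vertical axis, 0 to 100, 0 where there was no peak) as points and shading by the genotype in which the interval passed. In RND3 domain 3 the WT points lie above the CREBBP-KO points in all 3 intervals, in GLI2 below them in all 4, and FN1 domain 3 holds intervals of both kinds among its 12.

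The remaining large falls were those of PITPNB (a phosphatidylinositol transfer protein, shift -1.43), ANGPT1 (angiopoietin 1, the ligand of TEK, shift -1.42) and CBL (a ubiquitin ligase of receptor tyrosine kinases, shift -1.36). All 3 lay in introns of the genes they are named after. PITPNB stood at 97.9, 99.3 and 97.8 in WT and at 85.7, 90.4 and 85.8 in CREBBP-KO (SE 0.21, adjusted p = 0.00013). In CBL the spread was wide, at 90.4, 84.3 and 76.3 against 77.7, 62.7 and 62.1 (SE 0.27, adjusted p = 0.0014).

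Among the 10 domains with the highest sums, 6 ranked lower in CREBBP-KO and none was called higher, against 20.6% lower and 8.96% higher over all groups. These 10 were picked by the sum, and their count is a description. The lower ones were FAM241A (shift -0.84, adjusted p = 4.8e-08), RGCC (-0.64, 6.2e-06), WDR75 (-0.49, 0.00018), ANO6 (-0.46, 0.00021), MAML2 domain 2 (-0.33, 0.0070) and TNFSF18 domain 1 (-0.28, 0.0148). With 1 prior variance for all groups the limma adjusted p was 0.0036 for FAM241A, 0.013 for RGCC, 0.043 for WDR75 and 0.048 for ANO6. The shifts of MAML2 and TNFSF18 were weak. Both lost the call when distal intervals were ranked among themselves (-0.20 and -0.11) or with 1 prior variance for all groups (adjusted p = 0.160 and 0.215), and that of MAML2 turned to 0.44 at a fold of at least 10 and to 0.33 when stitching within 5 kb, and was -0.21 and not called without CREBBP-KO replicate 3 (adjusted p = 0.158). ANO6 was not called at a fold of at least 3 (-0.24, adjusted p = 0.051), with the fold in at least 1 library (-0.16, 0.212), with the fold averaged (-0.16, 0.246) or over all distal intervals (-0.17, 0.157). FAM241A kept its call under these alternatives, with scores of 0.88, 0.90 and 0.74 in WT and -0.13, 0.04 and 0.08 in CREBBP-KO.

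Coverage, the share of a domain's span under peaks of any fold, was tested in 1162 domains. It was higher in CREBBP-KO in 196 (16.9%) and lower in 155 (13.3%), against backgrounds of 15.7% and 15.1% over 3614 groups of several intervals (limma, adjusted p under 0.05), so both shares lay near the background. An interval that passed in 1 genotype only is high there by the rule and adds to such calls, so coverage differences of single domains that hold one are given without a test. In the 486 tested domains without such intervals 54 were higher (11.1%) and 55 lower (11.3%), against 10.4% and 12.6% of the 1480 groups without them. Most domains called lower in rank were not called in coverage, which did not hold for those called higher. The matching shares over all groups were not counted. Of 297 called lower in rank and tested for coverage 98 were lower and 5 higher in coverage, and of 101 called higher in rank 53 were higher and 0 lower. Without WT replicate 3 the number with higher coverage was 127, and without WT replicate 2 the number with lower coverage was 98.

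Domains that gained coverage, chosen after their values were seen, included TNS3 (tensin 3, a focal adhesion protein) with 7.04, 5.76 and 4.65 kb in WT and 15.1, 16.3 and 16.1 kb in CREBBP-KO, LMCD1 (a LIM domain transcriptional regulator) and GALNT10 (an enzyme of mucin-type glycosylation). The domain near LMCD1 was 96.3 kb long and was covered to 33.4, 34.5 and 33.5% in WT and to 70.6, 70.1 and 70.9% in CREBBP-KO, a difference of 36.7 percentage points, and 4 of its 7 intervals passed in CREBBP-KO only. In GALNT10 all 4 intervals passed in both genotypes, and coverage rose from 49.4, 44.2 and 39.6% to 78.6, 73.9 and 80.2% (33.1 percentage points, adjusted p = 0.00026). In LMCD1 the 3 libraries of each genotype lay within a few percentage points of each other, and the genotypes were far apart.

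The pathway lists show where domains lay in relation to known regulators. In the TGF-beta list 3 of 12 genes had a domain, with 5 domains in all, of which 3 ranked higher in CREBBP-KO, 0 lower and 2 were not called (median shift 0.33). With 1 prior variance for all groups 1 of the 3 lost its call. Over all tested groups the median was -0.14, with the shares of higher and lower calls given above. The domain near TGFBI, a matrix protein induced by TGF-beta, had scores of 0.01, -0.12 and 0.17 in WT and 0.63, 0.62 and 0.52 in CREBBP-KO (shift 0.57, SE 0.13, adjusted p = 0.024 with 1 prior variance, as it averages 3 intervals). Its coverage was 22.3 percentage points higher. At a fold of at least 10 its shift was 0.21 and not called (adjusted p = 0.529).

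SMAD3, the signal transducer of TGF-beta receptors, had 3 domains. Domain 2, a single interval in an intron of the gene (chr15:67072391-67094652), stood at 74.4, 72.3 and 71.3 in WT and 85.0, 91.3 and 86.0 in CREBBP-KO (shift 0.80, SE 0.20, adjusted p = 0.0073). Without CREBBP-KO replicate 3 its shift was 0.26 and not called (adjusted p = 0.252). Domain 3 was at the threshold (shift 0.33, adjusted p = 0.0499, and 0.162 with 1 prior variance) and lost the call when any library but WT replicate 3 was left out, with adjusted p up to 0.303. Domain 1 had a shift of -0.12 (adjusted p = 0.499), and TGFBR2, the receptor, one of -0.20 (adjusted p = 0.376). Among the members without a domain were SMAD7 and TGFB1.

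Of 9 Kruppel-like factors 5 had a domain, with 8 domains, 1 higher, 1 lower and 6 not called. KLF6 domain 2, 475 kb from the start, had scores of -0.07, 0.17 and 0.05 in WT and -0.77, -0.72 and -0.93 in CREBBP-KO (shift -0.86, SE 0.10, adjusted p = 1.2e-05). KLF9 domain 1, which averages 3 intervals, had a shift of 0.43 (SE 0.13, adjusted p = 0.0089). It was not called with 1 prior variance (adjusted p = 0.070) or without CREBBP-KO replicate 1 (0.34, adjusted p = 0.075). KLF4, a factor of differentiated epithelium, had 2 domains with shifts of 0.01 and 0.24 (adjusted p = 0.979 and 0.361).

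In the list of the EGF receptor pathway 4 of 18 genes had a domain, with 6 domains, 0 higher, 1 lower and 5 not called. EGFR itself held a domain of 43.9 kb in its introns, at percentiles 91.8, 91.7 and 91.7 in WT and 94.4, 95.0 and 94.2 in CREBBP-KO, and the shift of 0.19 was not called (adjusted p = 0.150). NRG1, a ligand of ERBB receptors, had 3 domains inside the gene that differed: domain 1 fell in rank (shift -0.74, SE 0.13, adjusted p = 0.0084 with 1 prior variance), with lower scores in all 3 of its intervals, domain 2 had a shift of 0.17 (adjusted p = 0.156), and domain 3 rose in coverage by 25.3 percentage points (adjusted p = 0.0040) with a rank shift of -0.19 (adjusted p = 0.332). The other members, DUSP5 and SPRY4, which restrain MAP kinase signalling, had shifts of -0.21 and 0.14 (adjusted p = 0.147 and 0.496).

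The YAP-TEAD list had 4 domains, near CCN1, TEAD1 and LATS2, from 3 of 11 genes, with 1 higher and 0 lower. It was LATS2 domain 2, near the start of this kinase of the Hippo pathway (shift 0.50, adjusted p = 0.0139), whose direction turned when the fold was averaged over libraries (-0.075) or when all its distal intervals were used (-0.090) and whose call was lost without WT replicate 2 (0.41, adjusted p = 0.061). TEAD1, a DNA-binding partner of YAP, had an intronic domain covered over 42.8, 39.4 and 40.7 kb in WT and 48.5, 47.8 and 52.6 kb in CREBBP-KO, where 1 of its 6 intervals passed alone. Of the 7 AP-1 genes only FOSL2 had domains, both inside BABAM2, of which domain 2 was lower (shift -0.38, adjusted p = 0.0224) and lost the call with 1 prior variance (adjusted p = 0.105) and without WT replicate 1 or CREBBP-KO replicate 3 (adjusted p = 0.080 and 0.104).

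The remaining lists had no called rank shift. Mesenchymal genes had 5 tested domains, 3 near FN1 and 2 near CDH2 (N-cadherin). FN1 domain 1 was covered over 24.4, 25.8 and 25.1 kb in WT and 32, 34.1 and 36.6 kb in CREBBP-KO, with 1 of its 3 intervals passing in CREBBP-KO only. Adhesion genes had 4 tested domains, near ITGA2, ITGA3, LAMB3 and CD44 (a hyaluronan receptor), with no called shift. The glucocorticoid response, named because the medium holds hydrocortisone, had 5 tested domains, near FKBP5, SGK1, NR3C1 and ERRFI1. Of 16 epithelial and intestinal transcription factors only SOX9 had one, with a shift of -0.19 (adjusted p = 0.487), and none of CDX2, HNF4A, ELF3 and GRHL2 did.

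Base composition moved with the shift. The GC content of a domain, averaged over the 300-base windows around the summits of its intervals, correlated with its rank shift at Pearson r = 0.35 and Spearman rho = 0.35 (n = 1177 domains, which share their libraries, so no p is given). When the domains were divided into 4 groups by GC, the 297 with the lowest GC (28.8 to 39.7%) included 5 higher and 113 lower ones in CREBBP-KO, with a median shift of -0.27. Of the 293 with the highest GC (47.8 to 68.3%) 50 were higher and 36 lower, with a median of 0.03. The median GC was 47.6% in higher, 41.3% in lower and 43.6% in uncalled domains. These values were computed over the domains only, so the trend is not shown to be particular to them.

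The windows of THBS2 and GLI2 shown above, rich in runs of G and C, and those of CDH9 domain 2 and PITPNB, with 0 such bases, lie at the ends of this trend and were shown for that reason. Other domains lay off it. ROS1, which rose, had 36.3% GC in its window with 8 bases in runs, and ITGB6, which rose, and FBXO15 domain 3, with the largest fall, both had 45.3%. When intervals were ranked within 20 classes of GC content, a choice made after the trend was seen, 162 domains were higher and 184 lower (46.8% of calls higher). The correlation with GC was 0.03. This ranking gives each GC class the same mean score in every library, which largely fixes that correlation in advance. Neither the correlation nor the balance of calls is therefore read as a result. Of the first calls 87 of 104 higher and 172 of 307 lower ones were made again. THBS2, GLI2, CDH9 domain 2, PITPNB, RND3 domain 3 and FBXO15 domain 3 were called in the same direction under this ranking, where the shift of CDH9 domain 2 was -0.93, while WDR75 and TNFSF18 domain 1 were not called.

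Motifs distinguished the domains little from other distal intervals. The letters searched on both strands were TGANTCA (AP-1), GGAATG (TEAD), TGACGTCA (CRE), TGTTTAC (FOX), CCGGAAGT (ETS) and ACANNNTGT (glucocorticoid receptor), none of which contains another. An AP-1 match was found in 10.3% of the 3921 summit windows in domains, 11.6% of those of lone distal intervals and 4.89% of those near starts. The shares for TEAD were 16.6%, 16.6% and 12.0%, and those for FOX 5.76%, 5.37% and 2.80%. Glucocorticoid receptor letters were found in 9.90% of domain windows against 8.77% of lone and 3.93% of start-proximal ones. CRE and ETS letters were rare in domain windows (0.0765% and 0.179%). Distal windows had a median GC of 43.3% in domains and in lone intervals alike, against 63.0% near starts.

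Between higher and lower domains the motif shares were close as well. AP-1 letters were in 11.4% of the windows of higher and 11.1% of those of lower domains, and TEAD letters in 16.7% and 18.3%. Across domains the density of AP-1 letters correlated with the shift at r = 0.03 and that of FOX letters, which are rich in A and T, at r = -0.12 (n = 1177, a description). Span and distance to the assigned start did so at r = 0.04 and r = -0.14.

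Neighbouring intervals tended to move together, but no more inside domains than in shorter groups. The score differences of adjacent intervals correlated at r = 0.30 inside a domain (2688 pairs) and at r = 0.30 in stitched groups under the span (2586 pairs). These differences were taken over distal intervals with a peak in all 6 libraries, including those that passed in WT only or CREBBP-KO only. The filter favours a direction in such intervals, and how far it adds to the correlations was not tested. They correlated at 0.21 between groups up to 50 kb apart and at 0.09 over 200 kb apart. Domains under 100 kb apart had shifts that correlated at 0.38 (188 pairs), of which the row near FBXO15 is an example. Of 858 domains with at least 3 intervals that had a peak in all 6 libraries, 276 had all intervals on one side, 190 of them lower and 86 higher in CREBBP-KO. The other 582 held intervals of both directions, as FN1 domain 3 did. The share over other stitched groups was not counted. Distal intervals that passed in both genotypes had a median shift of -0.14, so more lower than higher domains is not read as a trait of the domains. These correlations are over pairs that share libraries and are given as a description.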

How the data were processed

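H3K27ac ChIP-seq of 3 WT and 3 CREBBP-KO libraries was analysed from narrow peak lists. Neither of the input libraries was used here. The authors aligned the reads to hg38 in an nf-core workflow (BWA and hg38 are named in the submitters' processing notes) and called peaks with MACS2 for each library. Whether reads had been downsampled before these lists were made is not given in the sources used here. The deposited fold of a peak is a linear ratio over local background. Significance columns, as deposited, hold -log10 of the p- and q-values. The deposited score was not used. The lists hold no read counts, so depth is unknown, and only ranks within a list were compared between libraries.

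Peaks were merged across lists, filtered, stitched and annotated with GENCODE release 44. The furthest peak on each main chromosome lay within that chromosome's length in the reference, and 18 filtered intervals outside the main chromosomes were left out. Rank and coverage shifts were fitted with limma 3.58.1 (R 4.3.3) over all stitched groups. The planned trend of the variance on the number of intervals could not be fitted, because 8578 of 10661 groups average 1 interval, so the prior variance was estimated within classes of 1, 2, 3, 4 and 5 or more intervals. In the class of 3 intervals the prior degrees of freedom were infinite, so 329 domains share 1 standard error (0.13) and their p-values take no account of their own spread; 33 of them were called higher and 100 lower. Fits with 1 prior variance for all groups are given in the closing section. In simulated scores of 10661 groups with 200 shifted, recovery was 0% at a size of 0.5, 74.5% at 1.0 and 99.0% at 1.5, and at most 5 other groups were called. In the data 3149 of the 10661 groups (29.5%) were called, so the adjustment was less strict than in the simulation. The simulated rates therefore do not give the recovery or the error of the reported calls. Library values were set against each other by exact permutation, two-sided, in Python 3.11.15 with numpy 2.4.6, pandas 2.3.3 and scipy 1.17.1. The p-values measure the spread between these libraries, whose level of replication is not stated.

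Replicate numbers are shared between the genotypes, but deviations of same-numbered libraries correlated at 0.00 in all 3 pairs, so the numbers were not treated as pairs. Named domains were the 10 with the highest sum, the 6 with the largest called shift in each direction without overlap of the genotypes, the 3 widest and those assigned to genes of the lists. The members and the lists were chosen with earlier results of these data known. Sequences and their GC content are those of the reference genome.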

Additional observations from a re-analysis of the deposited data

How the results depend on the processing

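The number of domains followed the thresholds. There were 2675 with a fold minimum of 3 (2149 in WT and 2224 in CREBBP-KO stitched alone), 362 (280 and 293) at 10, 1881 (1559 and 1568) with the fold in at least 1 library, 430 (371 and 384) when stitched within 5 kb, 2204 (1748 and 1815) within 20 kb, 3207 (2646 and 2714) at a span of at least 10 kb and 266 (207 and 216) at 40 kb. Domains with a higher and a lower rank numbered 220 and 490 with a fold minimum of 3, 16 and 89 with 10, 46 and 97 within 5 kb, 205 and 555 within 20 kb, 254 and 735 at a span of 10 kb, 20 and 75 at 40 kb, 51 and 194 with 1 prior variance, 5 and 49 at an adjusted p under 0.0001, 195 and 189 ranked among distal intervals and 162 and 184 within classes of GC, the last 2 chosen after seeing the data. Higher calls alone moved with protein-coding starts only (157), a trend on the mean (56) and all distal intervals (173), and lower calls alone when ranked by -log10 p (199). Higher and lower coverage calls numbered 423 and 276 at a fold of 3, 55 and 52 at 10, 71 and 50 within 5 kb, 391 and 306 within 20 kb, 451 and 412 at a span of 10 kb, and 45 and 27 at 40 kb, and higher ones 296 with the fold in at least 1 library. The smaller counts at stricter fold, stitching and span thresholds come from fewer domains, and for the other changes the cause was not tested. All these counts are of domains only, without the share over all groups in the same setting.

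The difference in summed percentile was 7.10% with a fold minimum of 3 and -1.85% with lists of equal length, where that in covered length was -0.100% (exact p = 0.9). Peaks as a percent of the list differed by -4.33% (exact p = 0.4). The difference in width at a fold of 10 was 433 bp. Over the 6 fits without 1 library, the ranges were 1193 to 1257 domains (924 to 1060 in WT, 965 to 1050 in CREBBP-KO), 4.32 to 17.6% in peaks, -0.761 to 4.32% in covered length (-0.195% without WT replicate 3 and -0.761% without CREBBP-KO replicate 3), 0.0106 to 3.75% in summed percentile, 451 to 504 bp in width, 72 to 101 higher and 239 to 317 lower ranks, and 127 to 208 higher and 98 to 150 lower coverages. MAML2 domain 2 shifted by 0.44 at a fold of 10 and by 0.33 within 5 kb, and LATS2 domain 2 by -0.075 with the fold averaged and -0.090 with all distal intervals.

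With the replicate number as a block, 98 domains were higher and 292 lower in rank, and 173 higher and 127 lower in coverage. Peaks differed by 11.2% (exact p = 0.5) and covered length by 1.62% (exact p = 1), and the block changed no call of a named domain. Without read counts, the influence of depth on these values could not be assessed.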
